A study of Mus musculus with 12 samples.

Results

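The genes described here encode the secreted signals Gdnf, Nrtn, Kitl, Cxcl12 and Lif, by which gonadal somatic cells can act on germ cells, and the receptor subunits of the GDNF branch, Gfra1, Gfra2, Gfra3 and Ret. They were chosen by name, as all probe sets annotated to these 9 genes alone. All 9 genes were on the array, with 22 probe sets among the 44238 tested, which name 17996 genes. The cells were somatic support cells, the lineage that forms Sertoli cells in a testis and granulosa cells in an ovary, isolated by flow cytometry from gonads that the labels call testis or ovary. The 4 groups were XY cells at embryonic day 12.5 (E12.5), XX cells at E12.5, XY cells at E11.5 and XX cells at E11.5, with 3 pools each and 1 Affymetrix mouse array per pool. All 4 groups came from transgenic mice on an FVB background that carry the tyrosinase transgene Tg(Tyr)3412ARpw and, as Tg(Sry-EGFP)92EI, an EGFP reporter driven by Sry regulatory sequence, so no group lacks these transgenes. Nothing in the labels ties a pool to a litter, and the p-values therefore rest on pool-to-pool spread that could be partly technical.

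GDNF and neurturin, the product of Nrtn, are ligands of 1 family. They bind GPI-anchored co-receptors, GFRA1 for GDNF and GFRA2 for neurturin, and signal through the RET tyrosine kinase; GFRA3 is the co-receptor for artemin. In the testis, GDNF from Sertoli cells is known to sustain the self-renewal of spermatogonial stem cells. KIT ligand (Kitl) and CXCL12 support the survival and migration of primordial germ cells through KIT and CXCR4, and leukaemia inhibitory factor (Lif) acts on cultured germ cells through LIFR and IL6ST.

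Gdnf lies at chr15:7810048-7837580 on the plus strand and Nrtn at chr17:56751323-56757548 on the minus strand of GRCm38.p6. The 250 bases before their annotated starts are printed because these were the ligands that moved in opposite directions between the sexes at E12.5. They come from RefSeq, 5′ to 3′ along the gene, and capitals mark the motifs found by a search of both strands. The Gdnf window is chr15:7809798-7810047, plus strand, and the Nrtn window is chr17:56757549-56757798, minus strand.
Gdnf: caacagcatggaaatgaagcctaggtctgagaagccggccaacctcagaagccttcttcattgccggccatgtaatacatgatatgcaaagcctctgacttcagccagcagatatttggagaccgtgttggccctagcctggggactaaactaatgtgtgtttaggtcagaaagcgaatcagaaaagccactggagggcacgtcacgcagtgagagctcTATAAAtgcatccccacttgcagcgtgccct
Nrtn: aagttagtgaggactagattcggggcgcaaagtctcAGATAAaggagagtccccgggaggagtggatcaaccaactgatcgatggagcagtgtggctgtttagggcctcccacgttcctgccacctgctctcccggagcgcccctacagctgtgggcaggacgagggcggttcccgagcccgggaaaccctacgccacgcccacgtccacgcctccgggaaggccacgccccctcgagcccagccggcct
The capitals in Gdnf are a TATA box, TATAAA, beginning at position -31 from the start, a motif that 12.4% of 32851 promoters of this length hold and that was added to the search after the sequence had been read. The capitals in Nrtn are a GATA site, AGATAA, at -214, which 9.99% of promoters hold. The same letters lie at -84 from a second annotated start of Gdnf, 7813727, whose window is not printed. The other motifs searched were the SOX sites AACAAT (9.42% of promoters) and ACAAAG (16.5%), the NR5A1 site CAAGGTCA (1.33%), the E-box CACGTG (6.02%), the HES and HEY site CACGCG (7.62%) and the N-box CACGAG (5.37%). None of these letters lies in either window, and a match is a description of sequence, not a binding site.

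The sorted cells were checked against their label. Of the gonadal somatic genes, Gata4 read 8.60 to 10.57 over the 12 arrays, Nr5a1 10.42 to 12.30 and Wt1 11.53 to 12.73, while Lhx9 read 8.37 to 8.65 in XY E12.5 and 12.05 to 12.84 in the other groups. Germ cell markers, of which 11 of 12 were measured, averaged 5.53 to 6.54 in XY E12.5, 5.62 to 6.51 in XX E12.5, 5.46 to 5.88 in XY E11.5 and 5.50 to 6.16 in XX E11.5, and none was called in any comparison. They differed among themselves. Ddx4, an RNA helicase, read 3.33 to 6.63, the receptor gene Kit 6.43 to 8.08 and Utf1, a chromatin factor, 7.83 to 9.31. Beside these, 4 Y-linked probe sets read 3.33 to 5.17 in XX arrays, where no target exists. No germ cell marker stayed within that range on all arrays, and the list lay highest in pool 2 of E12.5 in both sexes (0.69 in XY and 0.66 in XX above the 12-array means), so a share of germ cells in the pools was not measured here. Libraries stood apart at E11.5 in 2 ways. Pool 2 of XX E11.5 was high in endothelial and mesenchymal markers: its 11 endothelial genes lay 1.99 log2 units above their 12-array means (-0.56 to 0.39 on the other arrays) and its 8 measured mesenchymal genes 1.61 above. By smaller amounts it also had the highest list means for macrophage (0.83), mesonephric (0.62) and neural crest and neuron markers (0.37). XX pool 3 and XY pools 1 and 3 shared 243 probe sets that were more than 1 log2 unit higher than in each of the other 3 E11.5 pools, against 4 probe sets in the opposite direction. The mean over these 243 was 8.76 to 9.06 in those pools, 6.56 to 6.73 in the other E11.5 pools and 5.64 to 6.32 at E12.5; no probe set of the 9 genes is among them. The effect of leaving out pool 2, or of a covariate for the shared probe sets, is given below for some results of these genes and not for all.

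**Figure D1:**
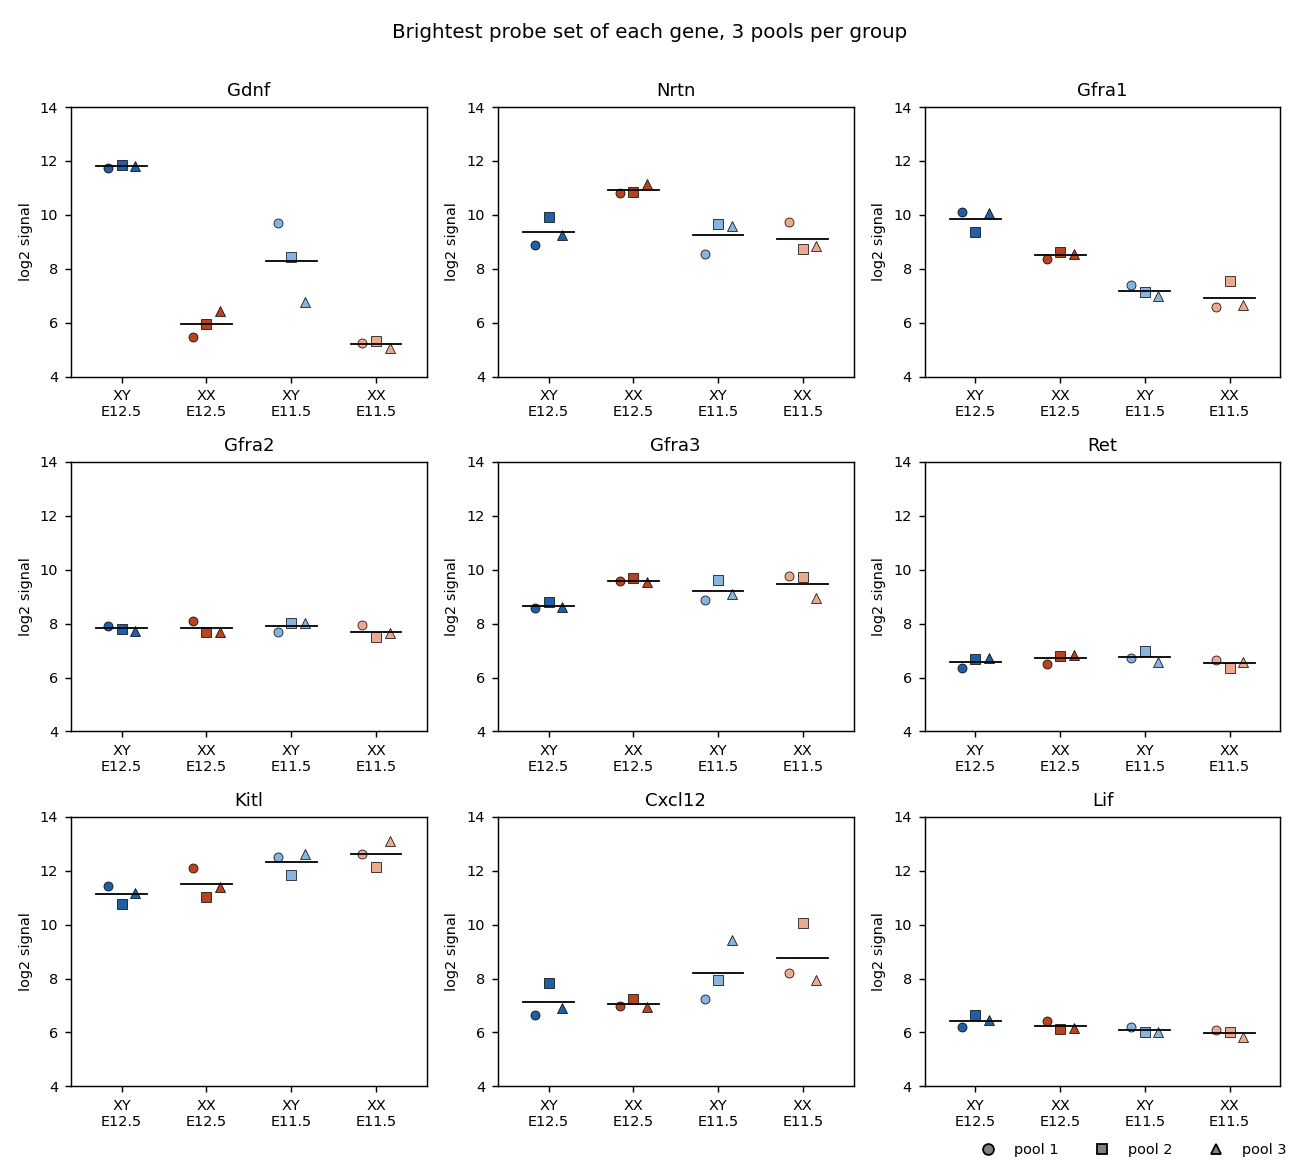
Log2 signal of the brightest probe set of each of the 9 genes (vertical axes) in the 4 groups (horizontal axes, 3 pools each); circles, squares and triangles are pools 1, 2 and 3, and lines are group means. Gdnf stands at 11.72 to 11.86 in XY E12.5 pools and below 6.5 in all XX pools, while Nrtn is highest in XX E12.5.

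Gdnf had the largest sex difference among the 22 probe sets on both days. Its single probe set (1419080_at) read 11.72, 11.86 and 11.83 in XY E12.5 pools 1, 2 and 3, against 5.46, 5.94 and 6.45 in XX E12.5 pools. At E11.5 it read 9.68, 8.44 and 6.77 in XY pools, against 5.23, 5.31 and 5.07 in XX pools. No XX pool reached the level of any XY pool of the same day, the XY E12.5 pools were nearly identical and the XY E11.5 pools were widely spread. At E12.5 Gdnf was 57.9-fold higher in XY than in XX cells (95% interval 24.1 to 139; log2 difference 5.86 ± 0.57 SE; limma, adjusted p = 0.000203). The order of its group means was XY E12.5 (11.81 ± 0.07), XY E11.5 (8.30 ± 1.46), XX E12.5 (5.95 ± 0.50) and XX E11.5 (5.21 ± 0.12; SD, n = 3 each), and no 2 neighbours in that order overlapped. The lowest group lay at the upper edge of the signal of 4 Y-linked probe sets in XX arrays (3.33 to 5.17). The folds against XX cells may therefore be compressed, and the data do not show whether XX cells hold Gdnf RNA. In bulk samples, fewer cells that express a gene and less RNA per cell cannot be told apart.

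Over the day, Gdnf rose 11.4-fold in XY cells (95% interval 4.74 to 27.3; limma, adjusted p = 0.00644). In XX cells its log2 difference over the same day was 0.74 ± 0.57 (adjusted p = 0.475). The difference between the 2 sexes' changes was 2.76 ± 0.80 with an adjusted p of 0.128. It was called only without XY E11.5 pool 1 (3.46, adjusted p = 0.0185), and without XX E11.5 pool 2 it was 2.71 (adjusted p = 0.24). The rise in XY cells missed the threshold when the E11.5 and E12.5 XY arrays were fitted alone (adjusted p = 0.0567) and with the mean of the 243 probe sets as covariate (3.15, adjusted p = 0.17), a covariate that itself falls over the day. At E11.5 the sex difference was 8.52-fold (95% interval 3.55 to 20.5; log2 3.09 ± 0.57) with an unadjusted p of 0.000273 and an adjusted p of 0.156. Without XY E11.5 pool 3, the lowest of its group, the adjusted p at E11.5 was 0.00378, and over all alternatives it ran from 0.00378 to 0.916. Between the pools that shared the high probe sets (XY pools 1 and 3, XX pool 3) the log2 difference at E11.5 was 3.16. Among the other E11.5 pools (XY pool 2, XX pools 1 and 2) it was 3.17. Each value has a single pool on one side, and XY pools 1 and 3 read 9.68 and 6.77. Splits this small cannot show whether the shared probe sets matter for Gdnf.

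Among the 6 Sertoli markers, Dhh alone had the order of Gdnf in XY E11.5 pools. Dhh, a Sertoli cell hedgehog ligand, read 9.76, 8.53 and 7.34 in XY E11.5 pools 1, 2 and 3, the same order as Gdnf. The 6 Sertoli markers together lay 1.09, 0.42 and 0.10 log2 units above their 12-array means in those pools, against -1.75 to -1.45 in XX E11.5. Sox9, a Sertoli transcription factor, read 11.50, 10.04 and 10.11, and Fgf9, a Sertoli growth factor, 12.21, 11.27 and 11.34. Both were thus highest in pool 1 but did not separate pools 2 and 3 as Gdnf did. Cst9 read 7.65, 7.11 and 7.36 in the same pools. Ptgds (8.71, 8.81 and 7.75) and Amh (6.48, 6.55 and 6.48) were highest in pool 2. What part the state of these cells or their share of a pool has in the Gdnf values was not tested.

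**Figure D2:**
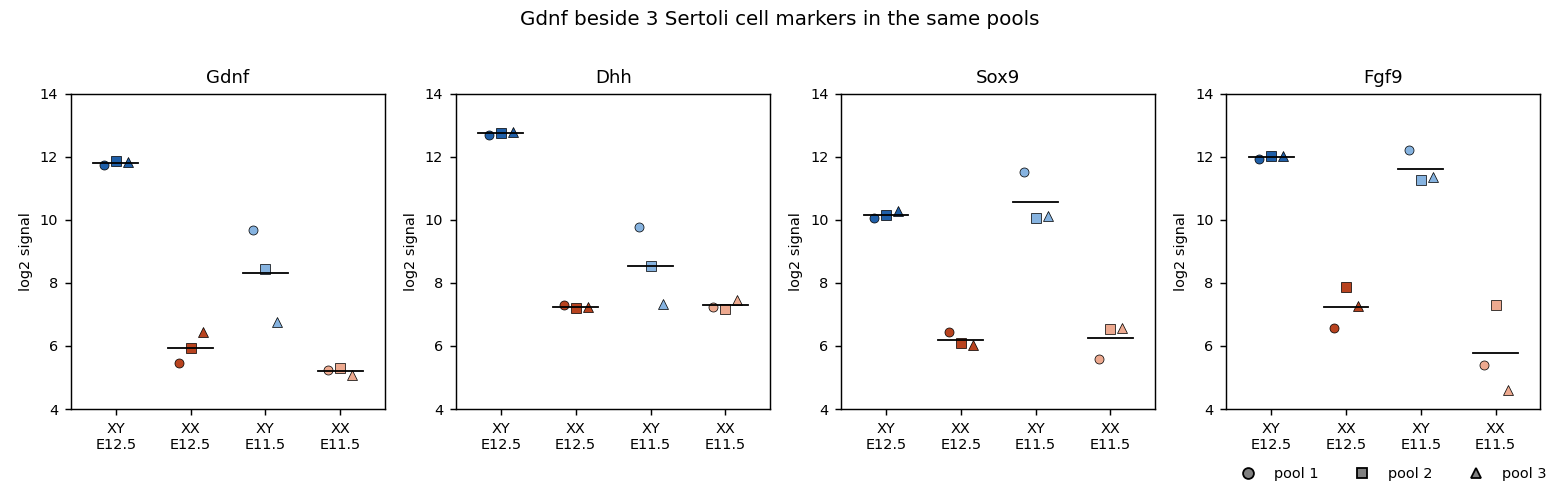
Log2 signal of Gdnf and of the Sertoli markers Dhh, Sox9 and Fgf9 (vertical axis) in the pools of the 4 groups (horizontal axis); circles, squares and triangles are pools 1, 2 and 3. Lines are group means; in XY E11.5 pools 1, 2 and 3 Gdnf reads 9.68, 8.44 and 6.77 and Dhh 9.76, 8.53 and 7.34.

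Nrtn, the gene of neurturin, differed in the opposite direction. Its probe set (1449281_at) read 8.88, 9.91 and 9.26 in XY E12.5 pools, against 10.81, 10.84 and 11.16 in XX E12.5 pools. A day earlier it read 8.53, 9.66 and 9.59 in XY pools, against 9.73, 8.75 and 8.83 in XX pools. The XX E12.5 pools lay above every other pool, and the remaining 3 groups overlapped. At E12.5 Nrtn was 3-fold lower in XY than in XX cells (95% interval 1.69 to 5.34; log2 -1.59 ± 0.37; limma, adjusted p = 0.0279). In XX cells it rose 3.57-fold over the day (2.01 to 6.34; adjusted p = 0.033), while in XY cells the log2 change was 0.09. The difference between these 2 changes was -1.74 ± 0.53 (adjusted p = 0.142). It was called only without XY E11.5 pool 1 (-2.11, adjusted p = 0.0475), and without XX E11.5 pool 2 it was -1.57 (adjusted p = 0.284). The sex difference at E12.5 lost its call when any 1 of the 3 XX E12.5 pools, or XY E12.5 pool 1 or 3, was left out (adjusted p up to 0.103). The rise in XX cells lost it when XX E11.5 pool 2 or 3, any XX E12.5 pool or XY E12.5 pool 3 was left out, and with the covariate (1.49, adjusted p = 0.234).

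Of the co-receptors, Gfra1 rose over the day in both sexes and was higher in XY cells at E12.5. Its brightest probe set (1439015_at) read 10.10, 9.36 and 10.06 in XY E12.5 pools, against 8.36, 8.63 and 8.55 in XX E12.5 pools. The E11.5 values were 7.41, 7.14 and 6.99 in XY pools, against 6.58, 7.55 and 6.67 in XX pools. The XY E12.5 pools lay above the XX E12.5 pools, and these lay above all E11.5 pools. At E11.5 the sexes overlapped only through XX pool 2 (7.55). Without that pool the log2 sex difference at E11.5 was 0.55, against 0.25 with it, and neither was called. At E12.5 Gfra1 was 2.51-fold higher in XY cells (95% interval 1.64 to 3.83; limma, adjusted p = 0.0156). Over the day it rose 6.32-fold in XY cells (4.14 to 9.65; adjusted p = 0.000487) and 2.99-fold in XX cells (1.96 to 4.56; adjusted p = 0.0193). The difference between the 2 rises was 1.08 ± 0.39 on the log2 scale (adjusted p = 0.222), and 0.77 without XX E11.5 pool 2 (adjusted p = 0.349). The rise in XY cells held its call under every alternative run (adjusted p 0.000148 to 0.0281). The sex difference lost its call when pool 1 or 3 of either sex at E12.5 was left out, where the adjusted p reached 0.0636. The rise in XX cells lost its call without XX E11.5 pool 3 and without XX E12.5 pool 2 or 3, with the compared arrays alone (adjusted p = 0.0581) and with the covariate (0.147). The other Gfra1 probe sets, 1450440_at and 1421973_at, read 4.93 to 5.78 and 4.87 to 6.05 over the 12 arrays and were called in no comparison.

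Gfra3, the artemin co-receptor, was lower in XY cells at E12.5. Its probe set (1418880_at) read 8.57, 8.79 and 8.61 in XY E12.5 pools, against 9.58, 9.69 and 9.53 in XX E12.5 pools. The E11.5 values were 8.89, 9.62 and 9.11 in XY pools, against 9.76, 9.74 and 8.94 in XX pools. The XY E12.5 pools were the lowest of all, and the other groups overlapped. The E12.5 difference was 1.92-fold (95% interval 1.34 to 2.77; log2 -0.94 ± 0.24; limma, adjusted p = 0.0369), and it lost its call when any 1 of the 6 E12.5 arrays was left out (adjusted p up to 0.113). The fall over the day in XY cells was -0.55 (adjusted p = 0.227), and -1.24 with the covariate (adjusted p = 0.0116).

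Gfra2, the neurturin co-receptor, gave conflicting probe sets. The brightest, 1425579_at, read 7.49 to 8.11 over the 12 arrays and was called in no comparison. Probe set 1459847_x_at read 7.58, 7.04 and 7.29 in XY E12.5 pools, against 6.67, 6.68 and 6.63 in XY E11.5 pools, without overlap. It was 1.56-fold higher at E12.5 in XY cells (95% interval 1.23 to 1.98; limma, adjusted p = 0.0363), a call that ended with the covariate (adjusted p = 0.469) and without any 1 of 7 arrays. Probe set 1433716_x_at read 8.18, 8.14 and 8.82 in XY E12.5 pools and 4.91, 8.72 and 8.05 in XX E12.5 pools, against 5.19, 5.81 and 4.59 in XY E11.5 pools and 4.93, 6.38 and 4.32 in XX E11.5 pools. XX E12.5 pool 1 was thus at the level of the E11.5 pools. Without that pool its rise over the day had an adjusted p of 0.00923 in XY cells and 0.0265 in XX cells, against 0.062 and 0.211 with it. The ending of these 2 identifiers marks probes that can match other transcripts, so whether they read Gfra2 is uncertain. The other 2 Gfra2 probe sets, 1423007_a_at and 1425578_a_at, read 5.32 to 5.97 and 5.27 to 5.87 and were called nowhere. The 2 uncertain ones correlated with each other over the 12 arrays (r = 0.89) and with 1425578_a_at (0.73 and 0.74), and hardly with the brightest (-0.03 and -0.29).

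The probe sets of Ret, the signalling receptor of the GDNF family, went different ways (r = -0.31 over the 12 arrays). The brighter, 1421359_at, read 6.34 to 6.98, near the median probe set of 6.57. The dimmer, 1436359_at, read 4.02 to 4.19 in XY E12.5, 4.48, 4.57 and 5.85 in XX E12.5, 4.01 to 4.02 in XY E11.5, and 4.09, 7.03 and 4.01 in XX E11.5. The value of 7.03 is that of XX E11.5 pool 2, the pool with the high endothelial and mesenchymal markers, in which 1421359_at had its lowest value, 6.34. The list means of mesonephric (0.62) and neural crest and neuron markers (0.37 above their 12-array means) were also highest in that pool. Their genes differed there. Of the mesonephric genes, Cdh1, Gata3 and Cdh16 were highest in that pool, but Lhx1 (4.95) was lowest, and Pax8 and Wnt9b were below their means. Of the neural crest and neuron genes, Th (8.30) and Stmn2 (7.61) were highest, and Sox10 (7.04) was below its mean of 7.55. The part of any cells of these kinds in the Ret values was not tested. Without that pool the E11.5 sex difference of 1436359_at was -0.03, against -1.03 ± 0.69 with it, and its change over the day in XX cells was 0.92, against -0.08. Neither probe set was called in any comparison, and at E12.5 their log2 differences were -0.12 ± 0.16 and -0.88 ± 0.69 (adjusted p = 0.777 and 0.566).

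Kitl gave strong signal in every group and was not called between the sexes on either day. Its brightest probe set (1448117_at) read 11.43, 10.78 and 11.18 in XY E12.5 pools, against 12.12, 11.02 and 11.38 in XX E12.5 pools. At E11.5 it read 12.51, 11.83 and 12.63 in XY pools, against 12.62, 12.15 and 13.10 in XX pools. The order of means was XX E11.5 (12.62), XY E11.5 (12.32), XX E12.5 (11.51) and XY E12.5 (11.13), and all neighbours overlapped. Its sex difference was not called at E12.5 (-0.38 ± 0.34; adjusted p = 0.639). Its fall over the day was -1.20 ± 0.34 in XY cells (limma, adjusted p = 0.0709) and -1.12 in XX cells (adjusted p = 0.099). The values followed the 243 shared probe sets over the 12 arrays (r = 0.86), and with their mean as covariate the changes over the day were -0.35 and -0.54.

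A second Kitl probe set, 1415855_at, gave another pattern. It read 11.38, 11.55 and 11.44 in XY E12.5 pools, against 11.30, 11.27 and 11.27 in XX E12.5 pools, and at E11.5 11.95, 10.95 and 11.13 in XY pools, against 12.20, 12.29 and 12.20 in XX pools. XX E11.5 pools lay above all others, and XY pool 1 of E11.5 stood near them. In XX cells it fell 1.93-fold over the day (95% interval 1.39 to 2.67; log2 -0.95 ± 0.21; limma, adjusted p = 0.044), but the call ended without any 1 of 10 of the 12 arrays and with the covariate (-0.78, adjusted p = 0.286). At E11.5 its sex difference was -0.88 ± 0.21 (adjusted p = 0.356), and -1.19 without XY E11.5 pool 1 (adjusted p = 0.00466). The dimmer probe set 1426152_a_at followed the brightest (r = 0.97 over the 12 arrays) and read 7.28 to 7.52 in XY E12.5, 7.53 to 8.64 in XX E12.5, 8.34 to 9.05 in XY E11.5 and 8.28 to 9.35 in XX E11.5. Probe set 1415854_at read 6.28 to 8.0 and was called nowhere. For each of the 4 probe sets the largest log2 difference between sexes or days was lower signal at E12.5 than at E11.5, in XY cells for 3 of them and in XX cells for 1415855_at.

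Cxcl12, the chemokine that guides germ cells to the gonad, varied among the pools of more than 1 group. The SD of 1448823_at was 0.99 in XX E11.5 and 0.95 in XY E12.5. That of 1417574_at was 1.15 in XX E11.5 and 1.11 in XY E11.5. Probe set 1448823_at read 7.05, 8.35 and 6.51 in XY E12.5 pools, against 6.74, 7.19 and 6.49 in XX E12.5 pools. At E11.5 it read 8.19, 7.51 and 8.12 in XY pools, against 8.21, 10.15 and 8.83 in XX pools. Probe set 1417574_at read 6.65, 7.85 and 6.90 in XY E12.5, 6.98, 7.23 and 6.96 in XX E12.5, 7.26, 7.93 and 9.43 in XY E11.5 and 8.22, 10.07 and 7.96 in XX E11.5. Both were highest in XX E11.5 pool 2, and XX E11.5 pools lay above XX E12.5 pools on both. The log2 change over the day in XX cells was -2.25 ± 0.54 for 1448823_at (limma, adjusted p = 0.0527) and -1.69 ± 0.63 for 1417574_at (adjusted p = 0.156), and it was -1.71 for 1448823_at without XX E11.5 pool 2 (adjusted p = 0.123) and -1.03 for 1417574_at (0.376). Endothelial cells and mesenchyme are known sources of CXCL12, and the part of such cells in these values was not tested. The third probe set, 1439084_at, read 5.34 to 5.94, was lowest in XX E11.5 pool 2 and was called nowhere.

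**Figure D3:**
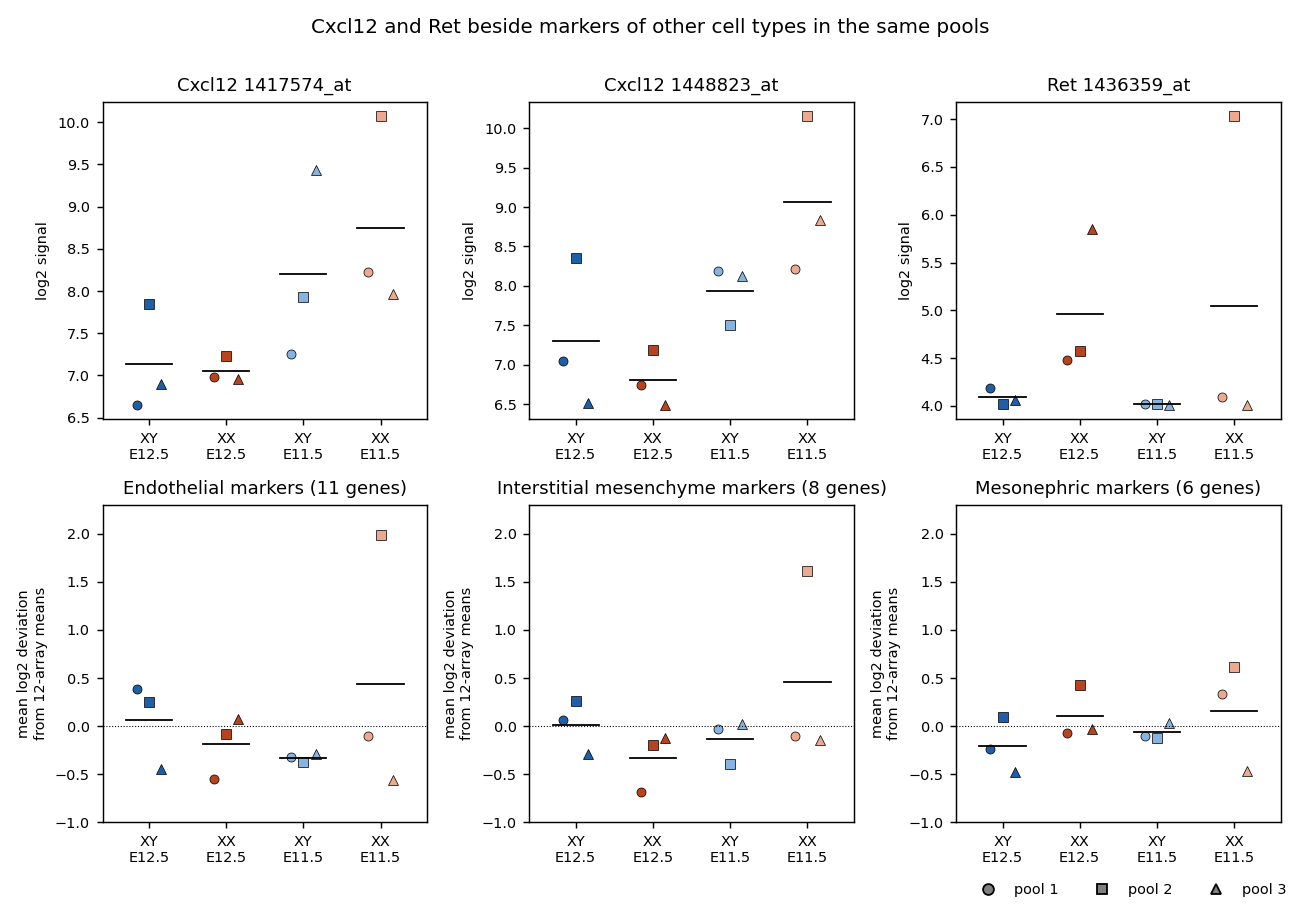
Log2 signal of Cxcl12 and Ret and deviation of marker lists from their 12-array means (vertical axes) by pool in the 4 groups (horizontal axes); circles, squares and triangles are pools 1, 2 and 3, and lines are group means. XX E11.5 pool 2 is the highest on the plotted probe sets of Cxcl12 (10.07 and 10.15) and Ret (7.03) and for endothelial markers (1.99); the Cxcl12 and Ret probe sets not plotted were lowest there (5.34 and 6.34).

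Lif differed by small amounts and was not called. Probe set 1421207_at read 6.19, 6.66 and 6.48 in XY E12.5, 6.42, 6.12 and 6.15 in XX E12.5, 6.19, 6.02 and 6.01 in XY E11.5, and 5.85 to 6.08 in XX E11.5. Probe set 1450160_at read 5.21 to 5.49 on all arrays. The brighter probe set was higher at E12.5 than at E11.5 in both sexes, without overlap in XX pools and with pools touching at 6.19 in XY, by 0.37 ± 0.14 in XY cells (limma, adjusted p = 0.173) and 0.25 ± 0.14 in XX cells. Its log2 sex difference at E12.5 was 0.22 ± 0.14 (adjusted p = 0.467).

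Counted together, 4 of the 22 probe sets (18.2%) differed between the sexes at E12.5, 2 higher in XY cells (Gdnf and Gfra1) and 2 lower (Nrtn and Gfra3). Over all probe sets tested 7.72% were called in that comparison, 3.92% higher and 3.81% lower. At E11.5 limma called 0 of 22 (0.0678% of all probe sets), with 3 at an unadjusted p under 0.05. Over the day in XY cells 3 of 22 were called, all higher (13.6%, against 6.16% of all probe sets, 3.18% higher and 2.98% lower). In XX cells 3 of 22 were called, with Nrtn and Gfra1 higher and Kitl lower (against 3.11%, 1.69% higher and 1.43% lower). The difference between the sex differences was called for 0 of 22 (against 1.75%), with 5 at an unadjusted p under 0.05. For the counts of 3 and 5 at an unadjusted p, the share of all probe sets is not given. Whether these counts exceed that share was not tested. The median log2 sex difference of the 22 at E12.5 was 0.01, beside -0.00 over all probe sets, so the 9 genes had no common direction. These comparisons share arrays, since each group enters a sex comparison and a day comparison.

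**Figure D4:**
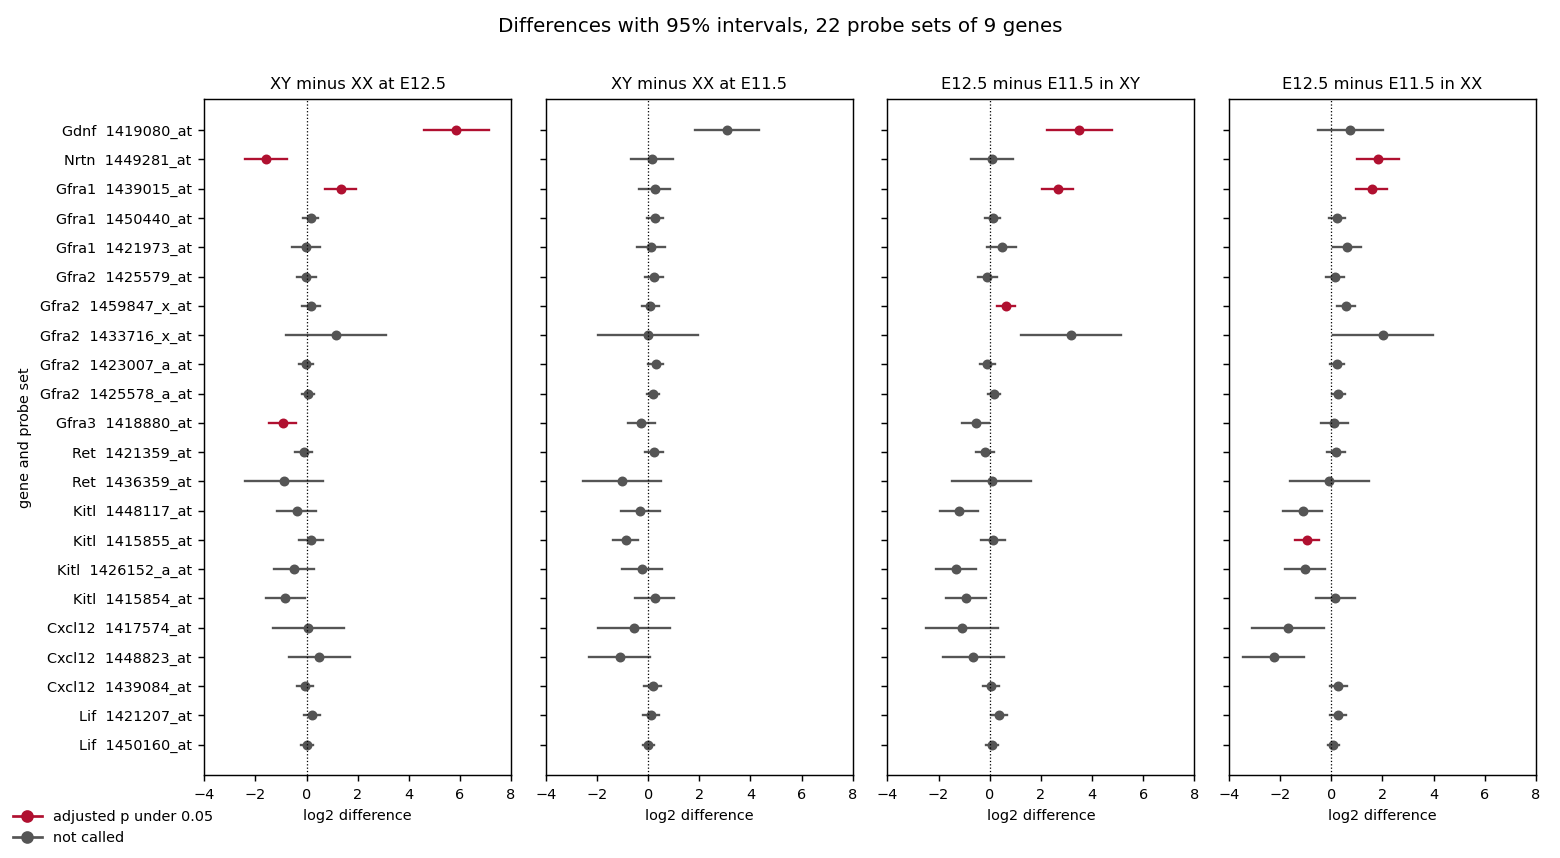
Log2 differences of the 22 probe sets with 95% intervals (horizontal axes) in the sex and day comparisons, by probe set (vertical axis), with those past an adjusted p of 0.05 in red. At E12.5 the called sex differences are Gdnf (5.86), Gfra1 (1.33), Nrtn (-1.59) and Gfra3 (-0.94).

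Other genes of the same pathways were read by their brightest probe set. Of a list of 51, 46 were measured, and Gfral, Gdf15, Cntf, Dok6 and Frs2 were not analysed here. At E12.5, 10 of the 46 (21.7%) differed between the sexes, against 11.1% of all genes (5.59% higher and 5.52% lower). In XY cells 5 were higher: Etv5, Fgf9, Jag1, Inhbb and Spry2. The other 5, Il6st, Igf1, Bmp2, Wnt4 and Rspo1, were lower. Of these genes, Fgf9 is also among the Sertoli markers, and Bmp2, Wnt4 and Rspo1 are among the markers of ovarian support cells (pregranulosa). The list was also chosen with earlier results of these data known. Its shares, here and in the other comparisons, therefore describe the list and do not test it against all genes. By group, 0 of 5 GDNF family genes and co-receptors, 1 of 5 receptors of the other ligands, 0 of 5 LIF family cytokines, 7 of 20 other ligands (3 higher, 4 lower) and 2 of 11 RET adaptors and response genes were called. The artemin and persephin genes Artn and Pspn read 4.65 to 5.01 and 6.28 to 6.82 over the 12 arrays, and the persephin co-receptor Gfra4 5.62 to 5.94.

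Etv5, an ETS factor that GDNF induces in spermatogonial stem cells and that Sertoli cells also express, was 43.4-fold higher in XY cells at E12.5 (log2 5.44 ± 0.58; limma, adjusted p = 0.00038) at its brightest probe set. Its other probe sets had log2 differences of 1.07 and 1.34, and 2 of the 3 were called. The brightest read 11.29, 11.17 and 11.13 in XY E12.5 pools, against 5.45, 6.40 and 5.41 in XX E12.5 pools. At E11.5 the values were 11.12, 9.29 and 8.77 in XY pools, against 6.54, 8.21 and 7.47 in XX pools. As for Gdnf, no XX pool reached an XY pool of the same day, and XY E11.5 pools 1, 2 and 3 stood in the same order. Among ligands, again by the brightest probe set, Fgf9 was 26.9-fold higher in XY cells at E12.5 and Jag1, a Notch ligand, 4.95-fold higher. Igf1, a growth factor, was 8.76-fold lower, Bmp2, a BMP ligand, 8.43-fold lower and Rspo1, which enhances WNT signalling in the ovary, 15.6-fold lower. Inhbb (1.83-fold) encodes an activin subunit and Spry2 (1.77-fold) an inhibitor of receptor tyrosine kinase signalling. Wnt4, which opposes the testis programme, was 4.74-fold lower. The call of Inhbb ended without any 1 of the 6 E12.5 arrays, that of Spry2 without any 1 of 4 of them, and that of Jag1 without XX pool 2 or XY pool 3. Other probe sets of the genes higher in XY cells gave smaller log2 differences: 2.27 for Fgf9, 1.39 and 0.03 for Jag1, 0.09 for Inhbb and 0.01 for Spry2. For the lower genes this did not hold throughout. Igf1 gave -1.41, -2.57 and -3.32, against -3.13 at its brightest probe set, and Wnt4 gave -2.94, against -2.25.

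The receptors of Kitl, Cxcl12 and Lif were described in the same way. Il6st, the shared receptor chain of the LIF family, was 3.81-fold lower in XY cells at E12.5 (log2 -1.93 ± 0.21; limma, adjusted p = 0.000365), with 9.39, 9.09 and 9.02 in XY pools, against 11.32, 10.96 and 11.02 in XX pools. Of its 4 probe sets 2 were called, both lower. Lifr had a log2 difference of 2.27 ± 0.72 at its brightest probe set (adjusted p = 0.0912), and 2 of its 3 probe sets were called higher in XY cells, a count made after their values were seen. The scavenger receptor gene Ackr3 (2.19 ± 0.89; adjusted p = 0.196), Cxcr4 (1.09 ± 0.54; 0.301) and Kit (0.16 ± 0.30) were not called.

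**Figure D5:**
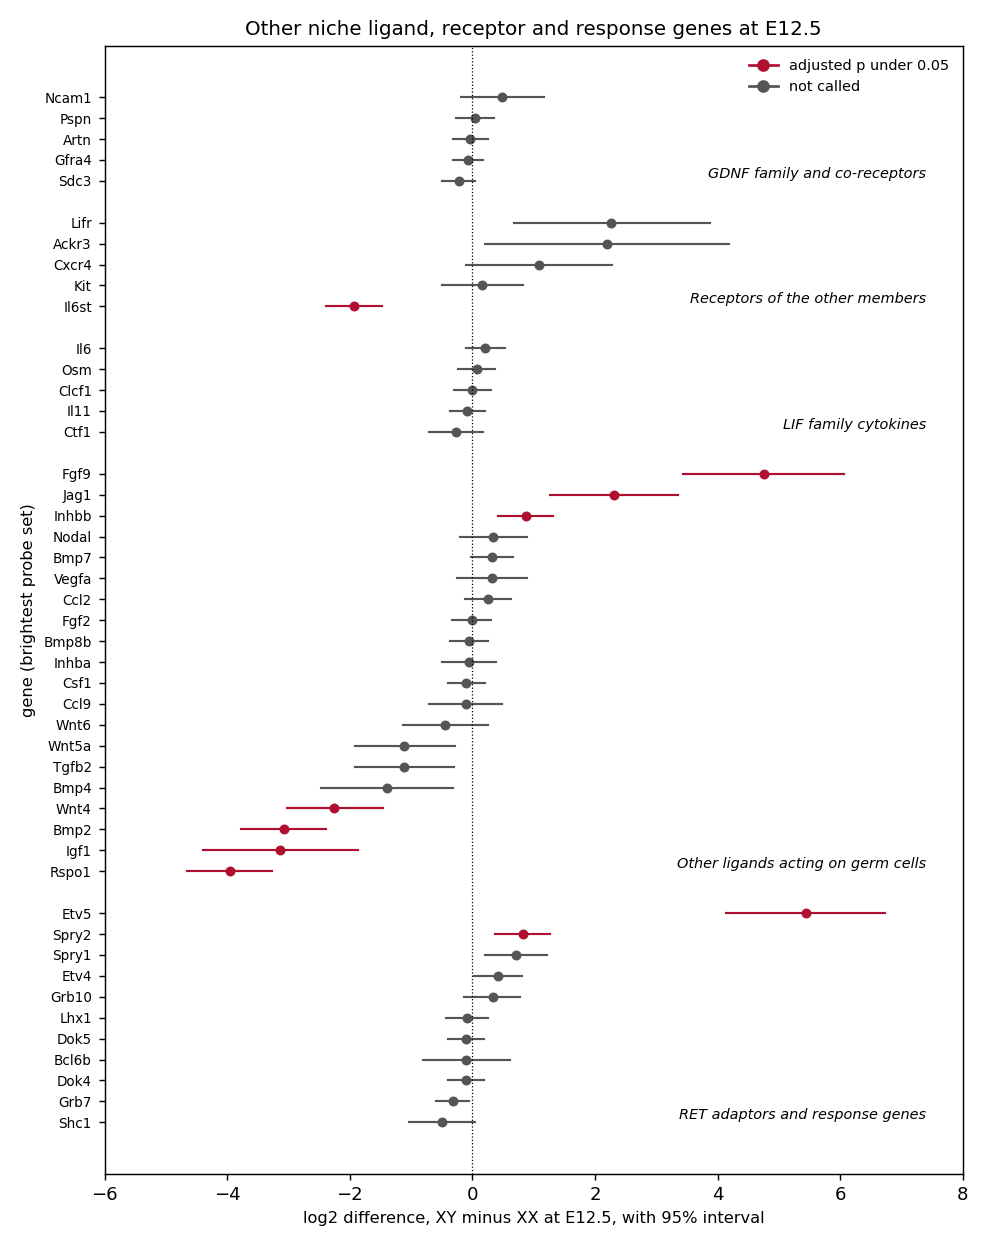
Log2 difference, XY minus XX at E12.5, with 95% intervals (horizontal axis) for the 46 other niche genes (vertical axis, by list), with those past an adjusted p of 0.05 in red. Of the 10 called, 5 are above 0, led by Etv5 (5.44), and 5 below, led by Rspo1.

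In the remaining comparisons fewer of these genes were called. At E11.5 the only one was Fgf9, 57.1-fold higher in XY cells at its brightest probe set (1 of 46, 2.17%, against 0.0556% of genes). It was not called with the E11.5 arrays alone (limma, adjusted p = 0.278). Its other probe set had a log2 difference of 1.57 at E11.5 and was not called (adjusted p = 0.422). Over the day in XY cells 5 were called (10.9%, against 7.01% of genes, 4.47% higher and 2.54% lower): Jag1 (12.9-fold) and Bmp7 (1.80-fold) rose, and Igf1 (8.97-fold), Bmp2 (3.14-fold) and Rspo1 (2.45-fold) fell. In XX cells 4 were called (8.7%, against 3.76%, 2.55% higher and 1.21% lower). Rspo1 (5.01-fold), Il6st (2.29-fold) and Bmp7 (1.60-fold) rose. Ncam1, an alternative GDNF receptor, fell 2.94-fold at its brightest probe set (log2 -1.56, limma, adjusted p = 0.0286), the only 1 of its 7 that was called. Of the other Ncam1 probe sets, 2 also fell without a call (-1.79 and -0.86, adjusted p = 0.0981 and 0.0905). The remaining 4 had small positive differences (0.14 to 0.32). Over the day in XY cells the call of Rspo1 ended without any 1 of 8 arrays and that of Bmp2 without XY E11.5 pool 3. In XX cells the call of Bmp7 ended without any 1 of 10 arrays, that of Ncam1 without any 1 XX E12.5 pool and that of Il6st without XX E12.5 pool 2 or 3. With the covariate 0 of the 46 were called in XY cells and 1 in XX cells. By the brightest probe set, the sex difference changed between the days for Jag1, Il6st, Bmp2 and Rspo1 (8.7%, against 2.83%). The other probe sets of Jag1 (0.32 and 1.58) and Il6st (-0.11, -0.45 and -0.38) were not called. Igf1 was not called at its brightest probe set (-2.73, limma, adjusted p = 0.131). Of its 4 probe sets 2 were called (-2.13 and -3.83, adjusted p = 0.0166 and 0.00188).

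The genes whose brightest probe set was most like that of Gdnf over the 12 arrays were Col27a1 (Pearson r = 0.989), Efhd1 (0.987), Smtnl2 (0.983), Trank1 (0.983) and Aard (0.982). Those most like Kitl were Sbno1 (0.956), 9030607L20Rik (0.949), Kansl1 (0.944), Csnk1d (0.941) and Akap8 (0.938). Those most like Cxcl12 were Rgs18 (0.953), Foxd1 (0.932), Alb (0.932), Adamts18 (0.931) and Itgb2 (0.914). These are descriptions over 12 arrays that share 4 group means and the same pools, which is why they carry no p.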

How the data were processed

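Per the labels' protocols, RNA of 12 pools of sorted somatic support cells was purified with PicoPure columns, and a 2-round TargetAmp kit made biotin-labelled antisense RNA from it. The values are the authors' log2 signals, deposited as a single table. How they were summarised and normalized was not given in the sources used here, and neither was the log base: the largest value, 14.45, allows a base of at most 2.15 for a 16-bit scanner, so values were taken as log2. The medians of the 12 arrays lay between 6.494 and 6.592, and having only 3 arrays a group limits precision.

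Of 45037 probe sets 798 were blank on every array and 1 on some, and the other 44238 were tested. Symbols came from the platform annotation supplied with the series, updated through Entrez identifiers with RefSeq (GRCm38.p6) for 34126 probe sets. Of those tested, 34328 had 1 symbol, 850 several and 9060 none, and only the first kind was named. Each gene was described by its brightest probe set on average, with all others given for the 9 members and some for the other niche genes; no filter on low signal was applied, and 13 of the 22 member probe sets (8 genes) were brighter than the median probe set.

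The labelled sex was checked on the arrays with 4 probe sets of the Y-linked genes Eif2s3y, Kdm5d and Uty. These read 3.33 to 5.17 in XX arrays, and each read higher in all XY arrays. Other probe sets of Y-linked genes are not given, so this XX range may not hold for every probe set without a target. Xist read 6.56 to 7.87 in XY and 12.80 to 12.95 in XX arrays. One linear model per probe set, with 4 group means, was fitted to all 12 arrays by lmFit and eBayes of limma 3.58.1 (R 4.3.3), which left 8 degrees of freedom (prior degrees of freedom 2.11). Calls are at a two-sided Benjamini-Hochberg adjusted p under 0.05 over all probe sets tested. The fit was tested on simulated data. Members, gene lists, marker lists and the rule for naming genes (all members, all called genes of the lists up to 5 per list, and the 5 genes most like Gdnf, Kitl and Cxcl12) were chosen with earlier results of these data known.

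Alternatives were brighter probe sets only, array quality weights, a trended variance prior, median centring, quantile normalization, a replicate block, compared arrays only, a 2-fold minimum, 1 probe set per gene and each array left out. The mean of 243 probe sets that set E11.5 pools apart was added as a covariate after seeing the data. Promoters of 6 of the 9 genes were in the RefSeq table; Gfra2, Gfra3 and Ret were not. Figures were drawn with matplotlib 3.10.9.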

Additional observations from a re-analysis of the deposited data

Results flagged for a closer look

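The following 6 results are listed because the sex difference or the change over the day differed between the days or the sexes. For Jag1 the sex difference was 3.33 log2 units larger at E12.5 than at E11.5 (limma, adjusted p = 0.0366). For Rspo1 it was -3.62 (adjusted p = 0.00347), for Bmp2 -2.40 (adjusted p = 0.0254) and for Il6st -1.36 (adjusted p = 0.0499), all tested as the difference itself. These are the values of the brightest probe sets, and the other probe sets of Jag1 and Il6st were not called. The calls of Jag1 and Il6st ended with the covariate for the E11.5 pools (adjusted p = 0.0507 and 0.0722), and those of Jag1, Bmp2 and Il6st ended without 1 of 8, 8 and 11 arrays, in the order named. Kitl probe set 1415855_at was higher in every XY than every XX pool at E12.5 and lower in every XY pool at E11.5, a difference of 1.06 (adjusted p = 0.116). Etv5 was higher at E12.5 than at E11.5 in every XY pool and lower in every XX pool, a difference of 3.12 (adjusted p = 0.0979). The last 2 did not pass the test of the difference itself, and without XY E11.5 pool 1 both did (adjusted p = 0.00274 for Kitl and 0.0154 for Etv5). No other alternative gave either a call, and without XX E11.5 pool 2 the Kitl difference was 1.03 (adjusted p = 0.224).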

How the results depend on the processing

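No called log2 difference of the 9 genes reversed under the alternatives, and 86 of their 110 results kept their side of the threshold under all that could be run for them (19 to 22 each). Gdnf at E12.5 (5.61 to 6.11; adjusted p 1.9e-05 to 0.00159) and the rise of Gfra1 in XY cells held throughout. Leaving out each array in turn, the member probe sets called ranged from 1 to 4 for sex at E12.5 (4 as reported), 0 to 1 for sex at E11.5 (0), 2 to 5 for the day in XY (3), 0 to 4 for the day in XX (3) and 0 to 3 for the difference between the sex differences (0). The other niche genes called ranged from 7 to 14 (10), 1 to 1 (1), 3 to 7 (5), 1 to 5 (4) and 1 to 4 (4). Over all probe sets the counts ranged from 2054 to 3765 (3416), 23 to 57 (30), 1277 to 3077 (2726), 183 to 1945 (1378) and 403 to 1273 (774). With compared arrays only, niche genes called were 0 for sex at E11.5, 3 for the day in XY and 1 for the day in XX. Over the day in XY, members called were 5 with brighter probe sets only and 5 with array quality weights, which gave 5 over the day in XX as well. With the covariate for the E11.5 pools, which takes up part of the change over the day, the niche genes called were 0 over the day in XY, 1 over the day in XX and 2 for the difference between the sex differences, the members called were 0 over the day in XX and 1 for the difference between the sex differences (Gfra3), and all probe sets called were 390 and 128 over the day in XY and XX. The labels state no pairing of pools with the same number. The deviations of same-numbered pools from their group means correlated by -0.4 to 0.23 over probe sets. With 3 pools per group this check cannot exclude a pairing. With the replicate block, Nrtn lost its calls (adjusted p = 0.0529 at E12.5 and 0.0538 over the day in XX), as did Kitl 1415855_at (0.0611) and Gfra2 1459847_x_at (0.0678), Kitl 1448117_at was called over the day in both sexes (0.0163 and 0.0367), and niche genes with a changed sex difference numbered 2. Cxcl12 1448823_at over the day in XX was called with brighter probe sets only (0.0307), quantile normalization (0.048) and array quality weights (0.0401). Probe sets near background compress folds, which limits Lif, Ret and Gdnf in XX cells.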
